A study of Mus musculus with 2 samples.

Results

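The genes described here are Id1, Id2, Id3 and Id4, the E protein genes Tcf3, Tcf4 and Tcf12, and Msc, which encodes musculin. They were picked by symbol, and all 8 were among the 26100 genes listed in both libraries of the study. The study profiled single cells by 10x Genomics 3′ sequencing from 2 libraries. One came from mouse embryonic fibroblasts (MEFs) kept in MEF medium. The other came from induced myogenic progenitor cells (iMPCs), which were made from such fibroblasts with MyoD, the muscle-determining transcription factor, together with agents the labels give only as F/R/C, and were held in medium with F/R/C. Both carried the genotype Tg:Pax7-nGFP/C57BL6;DBA2, a transgenic reporter of the satellite cell gene Pax7. The series' design text describes the iMPCs as a stable clone, so these cells stand for 1 clone in 1 library, and the MEFs for 1 library. No comparison below has a replicate, and no p-value is given.

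E proteins and Id proteins are helix-loop-helix proteins. An E protein pairs with a tissue-restricted partner, in muscle with Myod1, Myf5, Myog or Myf6, and the pair binds the E-box, CANNTG, in muscle genes. Id proteins can pair with E proteins but lack the basic region that contacts DNA, so that a pair with an Id protein does not bind; Id genes are widely known as targets of BMP signalling. Musculin, also called MyoR, is a helix-loop-helix repressor that binds E-boxes and is known in muscle precursor cells.

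RefSeq promoter windows (GRCm38.p6) were read for 5 of the 8 genes. All 8 genes were lower in the muscle-differentiated iMPCs than in the Pax7 cells described below, so this does not set any apart. A stretch is printed for each of the 4 genes read that had a stretch outside annotated exons. Each is the part of the 250 bases before a start site that lies outside annotated exons, 5′ to 3′ on the gene's strand. Capitals mark CANNTG, the E-box that E proteins and their partners bind, and GGCGCC, a motif known from BMP-responsive Smad sites in Id genes; both motifs read the same on either strand, and no marked match overlapped another.
Id2, chr12:25096254-25096342, minus strand: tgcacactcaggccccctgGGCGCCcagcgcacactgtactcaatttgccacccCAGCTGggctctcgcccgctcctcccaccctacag
Id4, chr13:48260866-48261115, plus strand: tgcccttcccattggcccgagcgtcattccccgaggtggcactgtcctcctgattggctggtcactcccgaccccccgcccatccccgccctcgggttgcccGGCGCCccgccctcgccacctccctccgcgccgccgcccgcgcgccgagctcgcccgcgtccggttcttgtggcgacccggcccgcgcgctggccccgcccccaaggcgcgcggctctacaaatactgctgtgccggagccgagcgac
Tcf3, chr10:80433648-80433885, minus strand: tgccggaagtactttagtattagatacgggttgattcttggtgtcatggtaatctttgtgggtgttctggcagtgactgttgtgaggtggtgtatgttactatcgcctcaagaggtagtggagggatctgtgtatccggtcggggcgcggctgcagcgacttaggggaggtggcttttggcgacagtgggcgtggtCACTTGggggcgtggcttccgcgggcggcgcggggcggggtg
Tcf12, chr9:72111872-72112069, minus strand: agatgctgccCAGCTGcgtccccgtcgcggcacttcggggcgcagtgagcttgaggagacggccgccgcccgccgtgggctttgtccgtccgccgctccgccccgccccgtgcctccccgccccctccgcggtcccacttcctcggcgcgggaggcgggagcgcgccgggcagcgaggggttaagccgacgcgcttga

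The Id2 window held both motifs, with GGCGCC beginning 231 bases and CAGCTG 196 bases before the start site used. That start and the printed Id2 stretch lie inside the Id2 gene as GENCODE M21 places it (25093799 to 25097140, minus strand). The Id2 stretch is therefore not upstream of the whole gene. The printed Id4, Tcf3 and Tcf12 stretches lie outside their genes. The Id4 window held GGCGCC 148 bases before the start and no E-box. Tcf3 held CACTTG 54 bases before its start, and Tcf12 held CAGCTG 240 bases before this start. Over all 32851 windows of 250 bases, 66.2% held CANNTG and 9.59% held GGCGCC. A search of both strands was also made for the CRE half-site TGACG, which 17.8% of windows held. The same was done for the box CCAAT (33.8% of windows) and for the box TATAAA (12.4%). Over the full 250 bases, the Id4 window held the second of these in 2 places and the first in 1, the Id2 window held the second in 3 places outside the printed part, a further Tcf12 window held it in 2, and the Id3 window, which lies in an annotated exon and is not printed, held the first. The last was in none of the windows read for these genes. A further Tcf12 start had the E-box CAAGTG 149 bases before it. These are matches of letters and were not tested for binding.

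Cells were kept at no more than 20% mitochondrial UMIs, a UMI being 1 captured and counted RNA molecule, and in iMPC also at 8036 UMIs or more. This left 6043 MEF cells with 118069653 UMIs and 9349 iMPC cells with 232728796 UMIs. From the iMPC cells, 4 sets were taken by UMIs of marker genes. The Pax7 set has at least 1 Pax7 and no Myog UMI (2180 cells), the Myog set at least 5 Myog and at most 1 Ckm UMI (1724 cells), the Ckm set at least 5 Ckm UMIs (1037 cells), and the Dcn set at least 5 UMIs of decorin, a fibroblast matrix gene (553 cells). The Dcn set shares 110 cells with the Pax7 set and 18 with each of the others, and 4001 iMPC cells are in none. Median UMIs per cell were 18929 in MEF and 18729.5, 23857.5, 42148 and 18064 in the Pax7, Myog, Ckm and Dcn sets. The 2 libraries had 16 cell barcodes in common.

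The sets were checked against markers, in CPM, a gene's UMIs per 1000000 UMIs of the set. The lists hold the genes that define the sets: Pax7 among satellite cell, Myog among committed myoblast, Ckm among myocyte and Dcn among fibroblast markers. Counts and sums are therefore in part fixed by the rule that made the sets. Myog alone gave 1339 of the 5629 CPM of committed myoblast markers in the Myog set. Of 10 satellite cell markers, 8 reached 10 CPM in the Pax7 set, 6 of 6 committed myoblast markers did so in the Myog set and 8 of 8 myocyte markers in the Ckm set. Both MEF and the Dcn set reached it for 8 of 8 fibroblast markers. These counts alone do not tell the sets apart: the Dcn set also reached 10 CPM for 8 of 10 satellite cell, 6 of 6 committed myoblast and 8 of 8 myocyte markers, the Ckm set for 6 of 6 committed myoblast markers, and the Pax7 and Myog sets for 7 of 8 myocyte markers each. By summed level, satellite cell markers were highest in the Pax7 set (828 CPM, against 259 to 444 CPM in MEF and the other 3 sets), committed myoblast markers in the Myog set (5629 CPM) and myocyte markers in the Ckm set. No set was pure: fibroblast markers summed to 1353 CPM in the Pax7 set against 6349 CPM in MEF, and myocyte markers summed to 3701 CPM in the Dcn set and 40889 CPM in the Ckm set. Smooth muscle markers summed to 9883 CPM in MEF and to 402 to 858 CPM in the iMPC sets. Endothelial, immune and glial markers summed to at most 3.39 CPM in any set. Epithelial markers summed to 14.6 CPM in MEF and under 1 CPM in the iMPC sets. The 3 neuron markers, Tubb3, Map2 and Rbfox3, summed to 26.5 CPM in MEF and to 90.7, 58.6, 36.1 and 45.6 CPM in the Pax7, Myog, Ckm and Dcn sets; Rbfox3 was at 0 in MEF and in the Pax7, Ckm and Dcn sets. The part of these markers in the results below was not tested.

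Levels are CPM of the UMIs summed over a set, with exact Poisson 95% intervals. Ratios carry exact conditional 95% intervals, and shares of cells exact Clopper-Pearson 95% intervals. All of them cover counting error only. A UMI counts 1 captured 3′ end, so levels were not divided by length, and different genes' levels also differ by how well each is captured. A ratio is called past 2-fold where it is at least 2-fold with 10 CPM or more on the higher side.

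**Figure D1:**
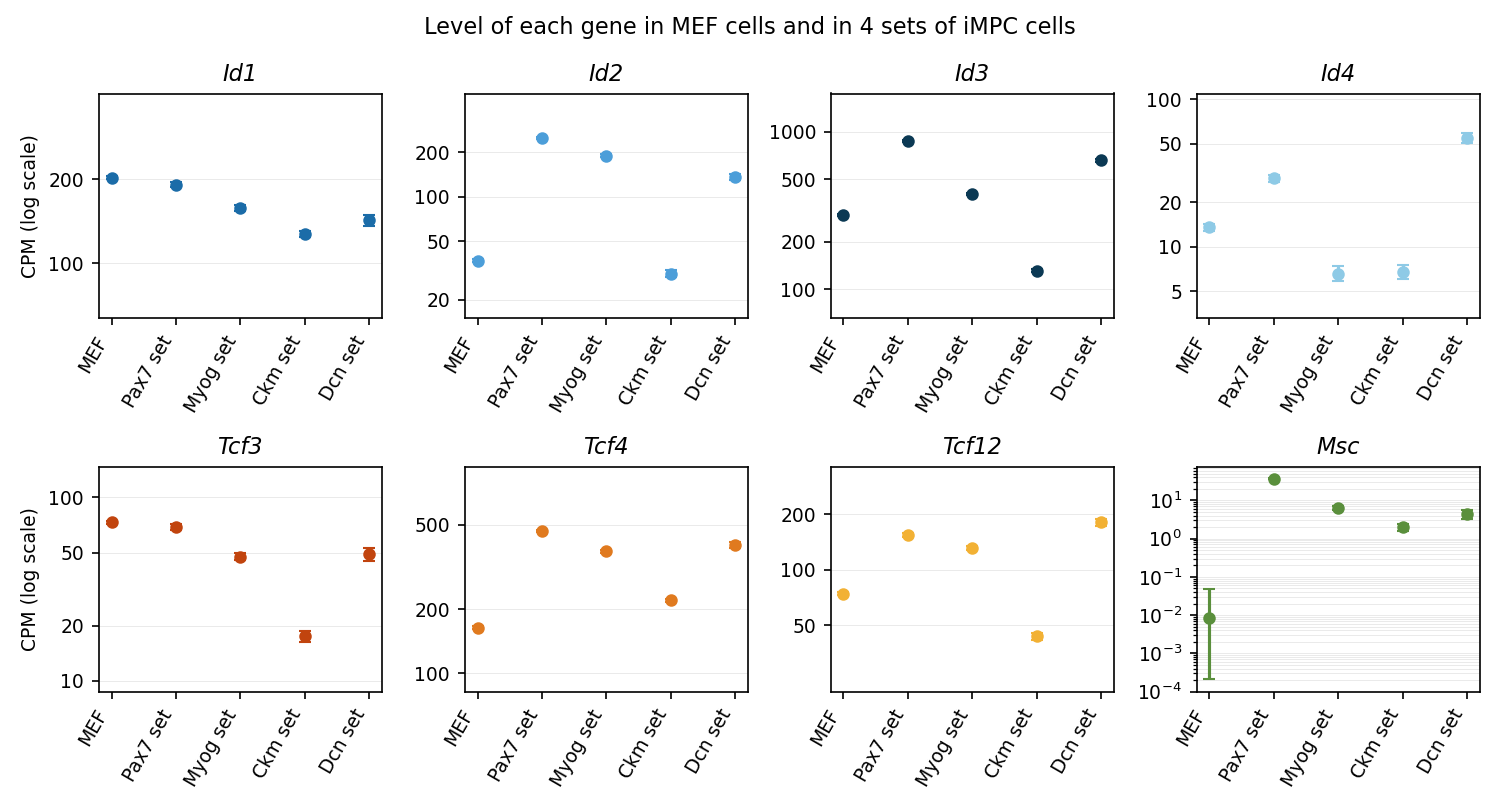
Level of each gene (CPM, log scale, separate axis per gene) in MEF cells (1 library) and the 4 iMPC sets (all from 1 library). Bars are exact Poisson 95% intervals. Id2, Id3, Tcf4 and Msc sit higher in the Pax7 set than in MEF, and all 8 genes sit lower in the Ckm set than in the Pax7 set.

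Among the Id genes, Id3 had the highest CPM in every set. In the Ckm set its interval overlapped that of Id1, which stood at 128 CPM (124 to 131). Id3 lies on chromosome 4 (136143497 to 136145755, plus strand, GENCODE M21 on GRCm38, as for all positions of genes here). Its level was 297 CPM (294 to 300) in MEF, 871 CPM (862 to 880) in the Pax7 set, 401 CPM (395 to 407) in the Myog set, 132 CPM (128 to 135) in the Ckm set and 658 CPM (643 to 672) in the Dcn set. The Pax7 set was highest and the Ckm set lowest, and no Id3 interval overlapped that of another set. A Pax7 cell had a median of 15 Id3 UMIs, the 90th percentile was 37, and the highest count was 91. A Ckm cell had a median of 2, against 3 for Id1. With each cell thinned to 5000 UMIs, so that depth is equal, 87.5% of Pax7 cells (86.1 to 88.9) and 35.8% of Ckm cells (32.9 to 38.8) had an Id3 UMI, against 57.5% in MEF. Unthinned, the shares were 95.7%, 75.1% and 78.5%.

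Id2 (chromosome 12, 25093799 to 25097140, minus strand) set the iMPC cells apart from MEF most among the Id genes. It stood at 36.9 CPM (35.8 to 38.0) in MEF, 249 CPM (245 to 254) in the Pax7 set, 189 CPM (185 to 193) in the Myog set, 30.2 CPM (28.6 to 31.7) in the Ckm set and 136 CPM (130 to 143) in the Dcn set. The Ckm set was thus the lowest, below MEF, and the Myog set was next below the Pax7 set. At 5000 UMIs per cell, an Id2 UMI was found in 14.8% of MEF, 59.2% of Pax7, 49.1% of Myog, 11.2% of Ckm and 40.1% of Dcn cells. Unthinned, 36.5% of MEF, 88.1% of Pax7 and 39.2% of Ckm cells had one.

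Id1 (chromosome 2, 152736251 to 152737410, plus strand) varied least of the 4. Its level was 203 CPM (200 to 205) in MEF, 191 CPM (187 to 195) in the Pax7 set, 158 CPM (155 to 162) in the Myog set, 128 CPM (124 to 131) in the Ckm set and 143 CPM (136 to 149) in the Dcn set. MEF was highest and the Ckm set lowest. Thinned shares of cells were 46.5% in MEF, 47.5% in the Pax7 set and 37.3% in the Ckm set, and unthinned shares were 69.6%, 73.7% and 79.1%.

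Id4 (chromosome 13, 48261228 to 48266026, plus strand) was the least abundant Id gene and the only one of the 8 besides Tcf12 to be highest in the Dcn set. It stood at 13.5 CPM (12.9 to 14.2) in MEF, 29.1 CPM (27.6 to 30.8) in the Pax7 set, 6.58 CPM (5.86 to 7.36) in the Myog set, 6.74 CPM (6.03 to 7.51) in the Ckm set and 54.8 CPM (50.7 to 59.1) in the Dcn set. The Myog and Ckm intervals overlap, and the other sets are apart. Id4 was unevenly spread over cells. In the Pax7 set the variance of its thinned counts was 3.03 times the mean, where a Poisson count gives a ratio of 1. At that depth 9.31% of Pax7 cells had an Id4 UMI, against 16.0% if its UMIs had fallen evenly. The ratio was 2.89 for Id3, 1.83 for Id1 and 1.75 for Id2 in the same cells.

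Tcf4 (chromosome 18, 69343356 to 69689079, plus strand) was the most abundant E protein gene in every set. This is the E protein gene and not the Wnt effector Tcf7l2, which is sometimes given the same name. Tcf4 stood at 164 CPM (162 to 167) in MEF, 468 CPM (461 to 474) in the Pax7 set, 376 CPM (370 to 381) in the Myog set, 221 CPM (216 to 225) in the Ckm set and 402 CPM (391 to 414) in the Dcn set. All 4 iMPC sets lay above MEF. At 5000 UMIs per cell 51.8% of MEF and 86.9%, 80.2%, 63.5% and 82.3% of Pax7, Myog, Ckm and Dcn cells had a Tcf4 UMI. Unthinned, these were 83.4% of MEF and 98.0% or more of the cells of each iMPC set.

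Tcf12 (chromosome 9, 71842688 to 72111871, minus strand) followed with 74.1 CPM (72.6 to 75.7) in MEF, 155 CPM (151 to 158) in the Pax7 set, 132 CPM (129 to 135) in the Myog set, 43.5 CPM (41.7 to 45.4) in the Ckm set and 181 CPM (174 to 189) in the Dcn set. Tcf3 (chromosome 10, 80409514 to 80433647, minus strand) was the lowest E protein gene, with 73.1 CPM (71.6 to 74.7) in MEF, 69.0 CPM (66.6 to 71.5) in the Pax7 set, 47.4 CPM (45.5 to 49.5) in the Myog set, 17.5 CPM (16.3 to 18.7) in the Ckm set and 48.9 CPM (45.0 to 53.0) in the Dcn set. In MEF the Tcf3 and Tcf12 intervals overlap, and for Tcf3 the Myog and Dcn intervals overlap. In the Pax7 set the E protein genes, unlike the Id genes, were spread almost as evenly as Poisson counts. There the variance to mean ratio was 0.943 for Tcf3, 1.28 for Tcf4 and 1.22 for Tcf12. In the Dcn set it was 1.03, 1.66 and 1.47 for these genes, against 2.04 to 3.56 for the Id genes. In the Ckm set Id4 (1.22) lay below Tcf4 (1.37). Thinned shares of cells for Tcf3 were 30.7% in MEF, 29.7% in the Pax7 set and 8.29% in the Ckm set, and for Tcf12 30.9%, 54.4% and 18.9%. Unthinned, Tcf3 was in 68.7%, 70.0% and 49.0% of these cells and Tcf12 in 67.9%, 91.4% and 75.5%.

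Msc (chromosome 1, 14753346 to 14755992, minus strand) had a single UMI in the 6043 MEF cells, which is 0.00847 CPM (0.000214 to 0.0472). In iMPC it stood at 37.2 CPM (35.4 to 39.1) in the Pax7 set, 6.21 CPM (5.51 to 6.97) in the Myog set, 1.97 CPM (1.60 to 2.41) in the Ckm set and 4.35 CPM (3.26 to 5.69) in the Dcn set. The Pax7 set was the highest by a wide margin, and the Myog and Dcn intervals overlap. An Msc UMI was seen in 32.8% of Pax7 cells (30.8 to 34.8) before thinning and in 12.9% (11.5 to 14.4) at 5000 UMIs, against 5.88% and 1.25% of Ckm cells.

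Free RNA in the iMPC library gives a floor for these shares. In 48846 iMPC barcodes of 200 to 600 UMIs, with a median of 430, all 8 genes were present. At their levels there, 430 UMIs of free RNA would give a UMI in 11.3% of cells for Id3, 6.08% for Tcf4, 4.73% for Id1, 3.09% for Id2, 2.30% for Tcf12, 1.11% for Tcf3, 0.402% for Id4 and 0.337% for Msc. The unthinned shares in every iMPC set lay above these.

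The Pax7 set was first set against MEF, which asks how the satellite-like iMPC cells differ from the fibroblasts of the MEF library. Of the 8 genes, 6 were higher past 2-fold and none lower, where 14.8% of all 8557 genes compared were higher and 19.4% lower. Msc had a log2 ratio of 12.10 (9.62 to 17.41), which rests on the 1 MEF UMI. Id2 was 6.75-fold higher, at a log2 ratio of 2.76 (2.70 to 2.81). Id3 followed at 1.55 (1.53 to 1.58) and Tcf4 at 1.51 (1.48 to 1.54). Id4 at 1.11 and Tcf12 at 1.06 (1.02 to 1.11) were near the 2-fold line, and Id4 came to 0.90 in iMPC cells of 12000 UMIs or more, 0.79 with stricter sets and 0.99 with cells of 1 set only. Id1 at -0.09 and Tcf3 at -0.08 were within 2-fold, and their sign changed with stricter sets, to 0.04 and 0.01, and with scaling by the median gene ratio. The median ratio was 1.31 over the 8 genes and -0.09 over all genes compared.

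Over all iMPC cells against MEF, 3 of the 8 were higher past 2-fold and none lower, beside 14.8% and 21.5% of 8605 genes. These were Msc at a log2 ratio of 11.01 (8.54 to 16.32), Id2 at 2.23 (2.19 to 2.28) and Tcf4 at 1.16 (1.14 to 1.18). Id3 stood at 0.92 (0.90 to 0.93), with 560 CPM in iMPC. It passed 2-fold with thinned cells (1.10), with CPM averaged over cells (1.15) and after scaling by the median gene ratio (1.09). Id1 at -0.31 and Tcf3 at -0.57 were the 2 with a negative value.

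The Dcn set, the fibroblast-like cells of iMPC, was not at MEF levels. Of the 7 genes with 10 CPM, 5 were higher past 2-fold and none lower, beside 13% and 12.9% of 8525 genes. Id4 had a log2 ratio of 2.02 (1.88 to 2.15), Id2 1.88 (1.80 to 1.96), Tcf4 1.29 (1.24 to 1.34), Tcf12 1.29 (1.22 to 1.36) and Id3 1.15 (1.11 to 1.18). Id1 stood at -0.51 and Tcf3 at -0.58. Library, medium, treatment with MyoD and F/R/C, and the iMPCs being a clone differ together in each comparison with MEF and cannot be told apart.

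The Myog set against the Pax7 set asks what differed at the onset of differentiation, within 1 library. None of the 8 was higher past 2-fold and 3 were lower, beside 7.02% and 11.5% of 7932 genes. Msc had a log2 ratio of -2.58 (-2.77 to -2.40), Id4 -2.15 (-2.33 to -1.96) and Id3 -1.12 (-1.14 to -1.09). The Id3 ratio came to -0.97, within 2-fold, when scaled by the median gene ratio, and to -1.76 when sets and values were both taken from cells thinned to 5000 UMIs. Thinned in that way Msc came to -3.56, and Id4 came to -2.75 with CPM averaged over cells. Id2 stood at -0.40, Id1 at -0.27, Tcf3 at -0.54, Tcf4 at -0.32 and Tcf12 at -0.23. With sets and values both thinned, Id2 came to -0.85 and Tcf3 to -0.95, both within 2-fold. The median over the 8 was -0.47 and over all genes -0.14.

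The Ckm set against the Pax7 set covers the span to cells with a full set of myocyte markers. In it 7 of the 8 were lower past 2-fold and none higher, beside 30.2% and 12.2% of 8115 genes, and the median over the 8 was -2.05 against -0.46 over all genes. Msc was 18.9-fold lower, at a log2 ratio of -4.24 (-4.55 to -3.94). Id2 was 8.27-fold lower (-3.05, -3.13 to -2.97) and Id3 6.62-fold lower (-2.73, -2.76 to -2.69). With cells and sets both thinned to 5000 UMIs, Msc came to -2.84 and Id2 to -3.68. Tcf12 stood at -1.83, and at -2.42 when thinned in this way. Id4 stood at -2.11, Tcf3 at -1.98 and Tcf4 at -1.08. Id1 at -0.58 was within 2-fold, near the median of all genes. Scaling by the median gene ratio brought Tcf4 to -0.63, within 2-fold.

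A CPM is a share of a cell's UMIs, and Ckm cells held more UMIs than Pax7 cells. Counted per cell, the mean was 9.44 Tcf4 UMIs in the Pax7 set and 10.4 in the Ckm set, and 3.86 and 5.99 Id1 UMIs. For the others, the count per cell was lower too: 17.6 and 6.18 for Id3, 5.04 and 1.41 for Id2, 3.13 and 2.04 for Tcf12, 1.39 and 0.821 for Tcf3, 0.588 and 0.316 for Id4, and 0.751 and 0.0926 for Msc. Tcf4 and Id1 are therefore lower in the Ckm set as a share of UMIs and not as UMIs per cell.

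The Dcn set against the Pax7 set gave 1 gene lower past 2-fold and none higher, beside 6.77% and 11% of 8196 genes. The 110 cells in both sets entered both sums, which the intervals do not allow for. Msc was that gene, at a log2 ratio of -3.10 (-3.52 to -2.70), and between -3.67 and -3.08 under the alternatives. Id4 was on the other side at 0.91 (0.77 to 1.05), and passed 2-fold with iMPC cells of 12000 UMIs or more (1.14), with stricter sets (1.10) and with cells of 1 set only (1.03). Id2 stood at -0.87, Tcf3 at -0.50, Id1 at -0.42, Id3 at -0.41, Tcf4 at -0.22 and Tcf12 at 0.23.

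**Figure D2:**
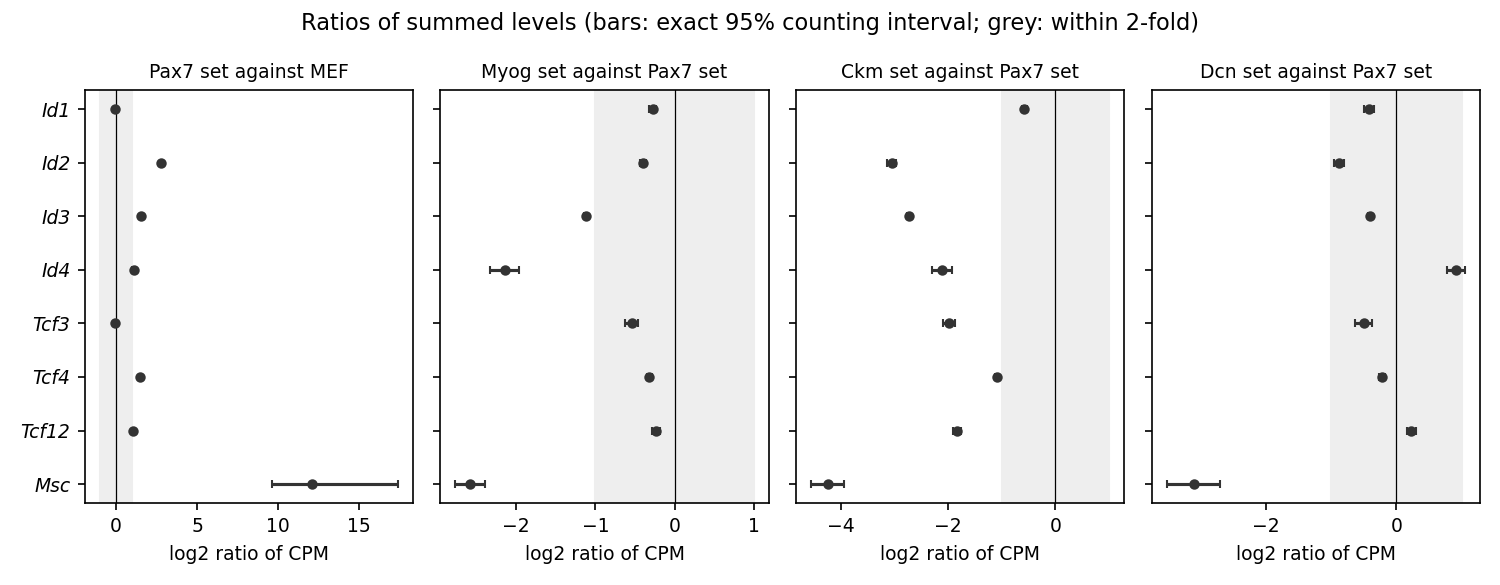
Log2 ratio of CPM for each gene in 4 comparisons of cell sets, each with its own horizontal axis. Points are ratios of summed UMIs, bars exact 95% intervals for counting error, and grey marks less than 2-fold. In the Ckm set against the Pax7 set, Id1 alone lies in the grey band at -0.58.

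The iMPC cells were then grouped in finer steps, starting from the Pax7 set. Next came cells with 1 to 4 Myog UMIs and at most 1 Ckm UMI (2522 cells), then the Myog set. The last steps, set by Ckm alone, were cells with 2 to 4 (498 cells), 5 to 19 (704 cells) and 20 to 99 Ckm UMIs (327 cells). Steps after the first were not held free of Pax7 UMIs. The genes did not leave the Pax7 level at the same step. At 1 to 4 Myog UMIs, Id2 (250 CPM), Id1 (193 CPM), Id3 (846 CPM) and Tcf3 (67.8 CPM) were within a few percent of the Pax7 set, and Msc was already lower at 29.3 CPM. From there to the Myog set, Id3 was at 401 CPM, Id4 went from 26.3 to 6.58 CPM and Msc to 6.21 CPM.

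Id2 was late by comparison. It was 189 CPM in the Myog set, 71.1 CPM at 2 to 4 Ckm UMIs, 34.2 CPM at 5 to 19 and 23.7 CPM at 20 to 99. Tcf12 had the same order of steps, with 132, 76.8, 48.6 and 35.2 CPM. Id3 went on to 208, 137 and 124 CPM over the 3 Ckm steps, and at the last its level lay beside that of Id1, 130 CPM (125 to 136), whose intervals over the 3 Ckm steps overlap. Tcf4 stayed above 200 CPM in all, ending at 216 CPM, and Tcf3 ended at 16.3 CPM. Median UMIs per cell went from 18729.5 at the first step to 52267 at the last. The sum of fibroblast markers was 1353 CPM at the first, 1437 CPM at 1 to 4 Myog UMIs, 296 CPM in the Myog set and 140 CPM at the last. Committed myoblast markers summed to 387 CPM at the first, 540 CPM at 1 to 4 Myog UMIs and 5629 CPM in the Myog set. Cells with UMIs of both Mki67 and Top2a, genes of dividing cells, were 47.3%, 48.2%, 33.4%, 13.7%, 9.23% and 7.34% over the steps in order. The part of each of these in the levels was not tested.

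**Figure D3:**
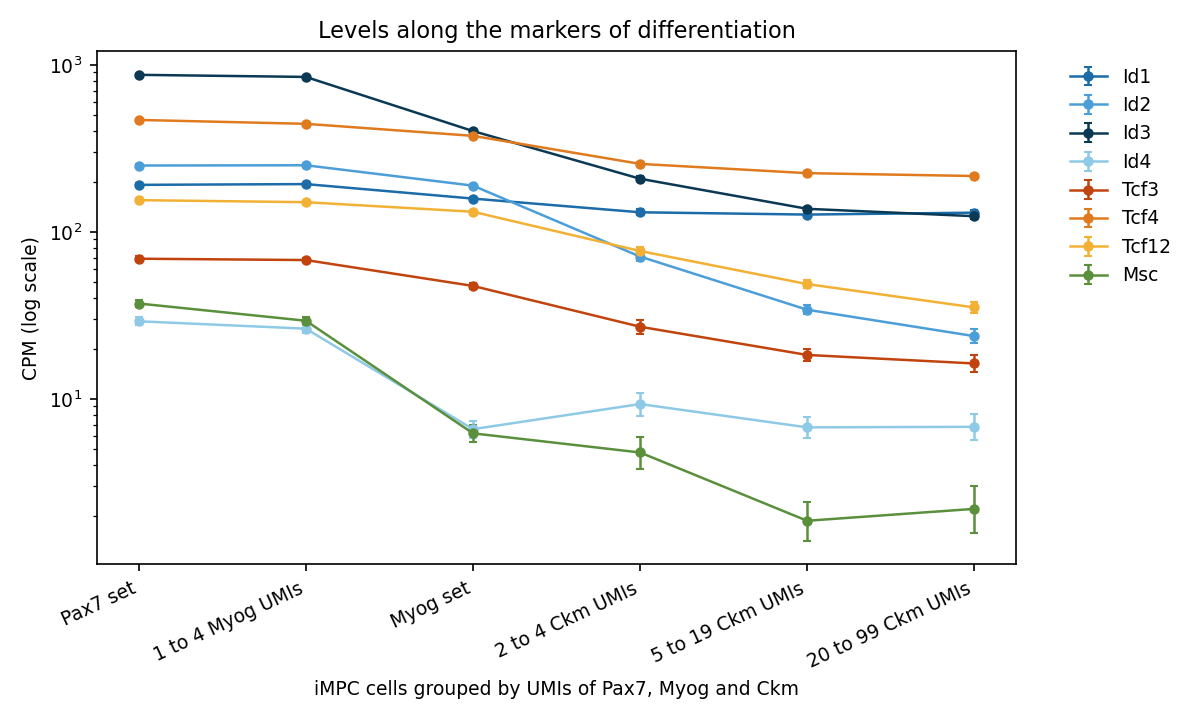
Level of each gene (CPM, log scale) in iMPC cells grouped by UMIs of Pax7, Myog and Ckm, in 1 library, with exact Poisson 95% bars. Msc and Id4 go down between 1 to 4 Myog UMIs and the Myog set, while Id2 goes from 189 to 34.2 CPM between the Myog set and 5 to 19 Ckm UMIs.

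Summed over the family, Id UMIs outnumbered E protein UMIs in MEF and in all 4 iMPC sets. The sums were 550 CPM of Id and 312 CPM of E protein UMIs in MEF, 1341 and 691 CPM in the Pax7 set, 755 and 555 CPM in the Myog set, 296 and 282 CPM in the Ckm set, and 991 and 632 CPM in the Dcn set. The ratio was 1.76 (1.74 to 1.79) in MEF and 1.94 (1.91 to 1.97) in the Pax7 set, then 1.36 (1.34 to 1.38) in the Myog set and 1.05 (1.03 to 1.08) in the Ckm set. From the Pax7 to the Ckm set it was lower by a log2 difference of -0.88 (-0.92 to -0.84). With cells thinned to 5000 UMIs the Ckm ratio was -0.01 on the log2 scale, so that which sum is larger there depends on the setting.

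The make-up of both sums differed between sets. Id3 gave 65.0% of Id UMIs in the Pax7 set and 44.4% in the Ckm set, and Id1 gave 14.3% and 43.1%. Id2 was 6.72% of Id UMIs in MEF, 18.6% in the Pax7 set and 10.2% in the Ckm set. Tcf4 made up 52.7% of E protein UMIs in MEF, 67.6% in the Pax7 set and 78.3% in the Ckm set, and Tcf3 made up 23.5%, 9.98% and 6.21%. A ratio of mRNA counts is not a ratio of proteins, which were not measured here.

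**Figure D4:**
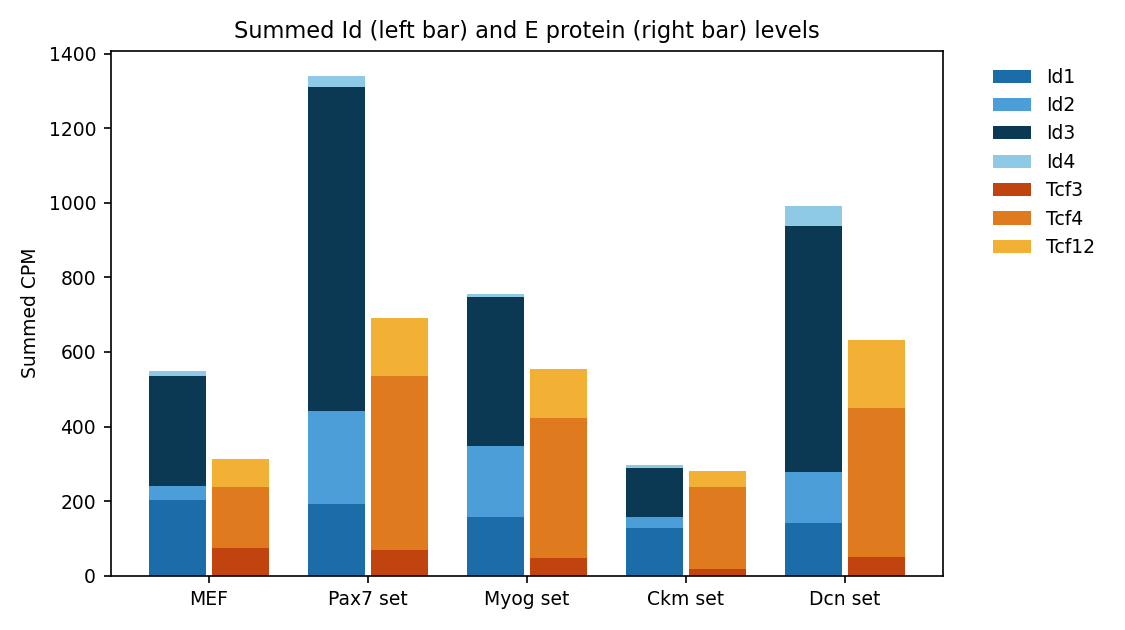
Summed CPM of Id1 to Id4 (left bar) and of Tcf3, Tcf4 and Tcf12 (right bar) in each set, stacked by gene. The Id bar is 1341 against 691 CPM in the Pax7 set and 296 against 282 CPM in the Ckm set.

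Within the Pax7 set, cells with UMIs of both Mki67 and Top2a, genes of dividing cells, were compared with cells that had neither. The 1032 cycling cells had a median of 22795 UMIs and the 797 others 14832. Id4 was 10.4 CPM in cycling and 63.9 CPM in other cells, a log2 ratio of -2.62 (-2.83 to -2.42). Id1 was on the opposite side with 231 against 121 CPM, a log2 ratio of 0.93 (0.85 to 1.01). Msc was 48.9 against 17.3 CPM (log2 ratio between 1.29 and 1.71) and Id3 958 against 713 CPM (0.43, 0.39 to 0.46).

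Id2 at -0.12 and Tcf4 at -0.03 were nearly level, Tcf3 stood at 0.36 and Tcf12, with 135 against 192 CPM, at -0.50. With all cells and the split itself thinned to 5000 UMIs the values were -2.95 for Id4, 0.99 for Id1, 1.31 for Msc and 0.47 for Id3. Fibroblast markers summed to 972 CPM in cycling and 2090 CPM in other Pax7 cells. Among Pax7 cells without a Dcn UMI, a split chosen after its values were seen, Id4 was 9.02 CPM in cycling and 55.0 CPM in other cells, and fibroblast markers still differed, at 834 against 1637 CPM. Their part in the Id4 difference was not tested.

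In the Myog set the split gave another pattern. All 8 genes were higher in the 576 cycling cells than in the 841 others: Msc by a log2 ratio of 2.20 (1.75 to 2.68), Id3 by 1.27 (1.22 to 1.32), Tcf3 by 1.16, Id4 by 1.11 (0.74 to 1.49), Id2 by 1.08, Id1 by 0.73, and Tcf4 and Tcf12 by 0.55 each. Id2 stood at 266 CPM in the cycling and 126 CPM in the other Myog cells, against 249 CPM in the whole Pax7 set. Thinned, the interval of Id4 included 0 (0.43, -0.72 to 1.47). Myocyte markers summed to 4303 CPM in the cycling and 19174 CPM in the other Myog cells, and their part in this was not tested. In MEF, where the split was added after the Pax7 values were seen, 436 cycling and 5098 other cells differed by -0.30 to 0.29 for the 7 genes other than Msc, with Id4 at -0.30 (-0.57 to -0.04) and Id1 at -0.06.

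**Figure D5:**
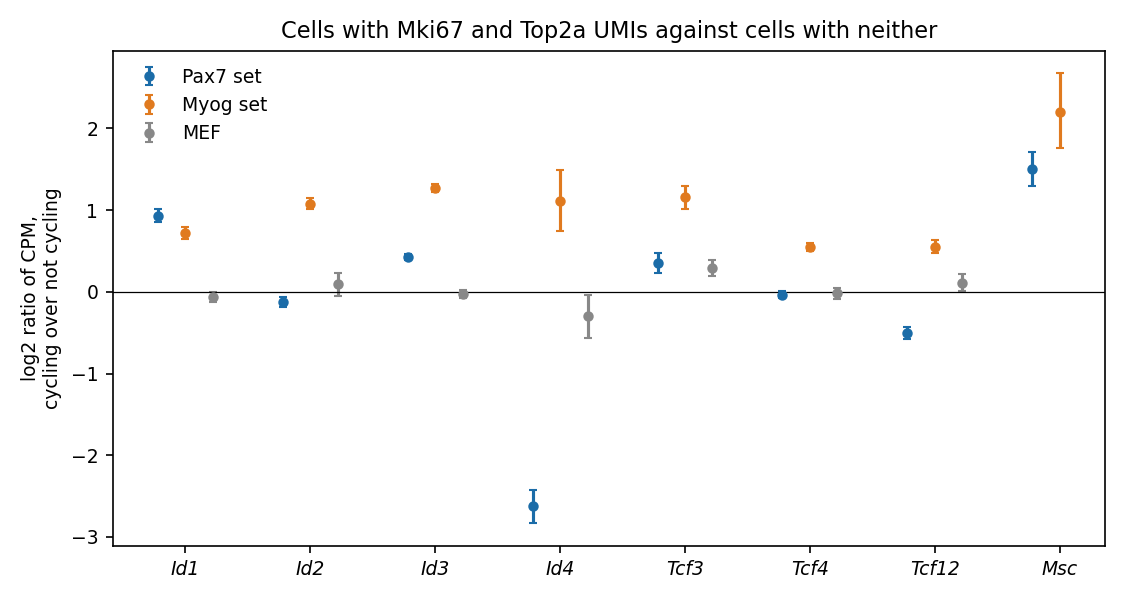
Log2 ratio of CPM between cells with Mki67 and Top2a UMIs and cells with neither, in the Pax7 set, the Myog set and MEF, with exact 95% bars. Id4 stands at -2.62 in the Pax7 set, and MEF values lie between -0.30 and 0.29; Msc has no MEF value because 1 UMI was seen there.

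The Pax7 set was also divided by UMIs of Myod1, an E protein partner. From 1017 cells with none, through 937 with 1 to 4, to 226 with 5 or more, Id1 went from 160 to 197 to 275 CPM, Id2 from 217 to 254 to 345 CPM and Id3 from 778 to 896 to 1105 CPM. Id4 went the other way, from 43.8 to 20.5 to 8.41 CPM. Tcf4 (468, 473 and 448 CPM) and Msc (38.3, 37.4 and 32.9 CPM) had overlapping intervals over the 3 groups, and Tcf3 was highest in the last, at 83.9 against 64.9 CPM in the first. The share of cycling cells was 38.6%, 51.5% and 69.0% and median UMIs were 17576, 19026 and 23542, and fibroblast markers summed to 1781, 1028 and 998 CPM. The part of these in the levels was not tested.

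Which of the genes were detected in the same Pax7 cells was read for all 28 pairs at 5000 UMIs per cell. The log2 odds ratio was 2.12 (1.19 to 3.21) for Id3 with Msc, 1.88 (1.44 to 2.34) for Id1 with Id3, and 1.15 (0.76 to 1.54) for Id1 with Msc. It was negative for Id4 with Msc, at -1.96 (-3.21 to -0.94) with 8 cells holding both where 26.2 were due from the 2 shares. Id4 with Id3 gave -1.63 (-2.14 to -1.12) and Id4 with Id1 -1.18 (-1.65 to -0.71). All 7 intervals of pairs with Id2 included 0. Cells of 1 library are not replicates, and these values are a description.

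For each gene, the 3 other genes whose levels over MEF and the 4 iMPC sets were most alike were found among 9258 genes, by the root mean square difference of centred log2(CPM + 1) over these 5 points. Id2 was nearest to Notch1 (0.14), the receptor, which stood at 13.8 CPM in MEF, 94.8 CPM in the Pax7 set and 11.9 CPM in the Ckm set, then to Ramp2 (0.19) and Nusap1 (0.21). Msc was nearest to Cd28 (0.23), Barx2 (0.28) and Hey1 (0.30), a Notch target gene. Id3 was nearest to Wrn (0.04), Igsf3 (0.16) and Tanc2 (0.20), and Id4 to Chst1 (0.14), Rab20 (0.14) and Scara3 (0.17). Id1 was nearest to Msantd3 (0.04), Sumo2 (0.05) and Gtf2i (0.05).

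Among the E proteins, Tcf3 was nearest to Hdac1 (0.05), a histone deacetylase, which stood at 75.6 CPM in MEF, 71.6 CPM in the Pax7 set and 16.6 CPM in the Ckm set, then to Tent4a (0.07) and Wtip (0.07). Tcf4 was nearest to Nop53, Rell1 and Nsun6 (0.06 each), and Tcf12 to Lpin2 (0.09), Dcbld1 (0.14) and A430027C01Rik (0.15). Likeness over 5 points that share 2 libraries says nothing of control or function.

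Genes of the BMP and Smad pathway, upstream of the Id genes in other settings, were read from a list of 28. In the Myog set against the Pax7 set, 12 reached 10 CPM, of which none was higher past 2-fold, 2 were lower and 10 were within it, beside 7.02% of all genes higher and 11.5% lower, with a median of -0.30. The 2 were Grem1, a secreted BMP antagonist, at 5.78 against 29.7 CPM (-2.36), and Smad7, an inhibitory Smad, at 9.18 against 22.5 CPM (-1.29). Atoh8 was next by size at 0.70. In iMPC against MEF, 1 of 15 was higher and 6 were lower, beside 14.8% and 21.5% of all genes. Nog, the BMP antagonist noggin, stood at 21.4 against 0.601 CPM (5.15), and the receptor Acvrl1 at -2.97. In the Ckm set against the Pax7 set, 4 of 12 were lower and none higher, beside 30.2% of all genes lower, which is near the share in the list.

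Of 29 other helix-loop-helix genes, 18 were compared in the Myog set against the Pax7 set, with 5 higher, 6 lower and 7 within 2-fold, beside 7.02% and 11.5% of all genes, and a median of -0.23. The 5 higher include Myog, which defines both sets, so its place among them was fixed in advance. Apart from Myog, the largest were Scx at 12.4 against 1.66 CPM (2.90) and Hes6 at 272 against 47.3 CPM (2.52). In iMPC against MEF 10 of 18 were higher and 3 lower, beside 14.8% and 21.5% of all genes, led by the muscle factors Myog, Myf6 and Myod1, which had 6, 1 and 9 UMIs in MEF and 570, 32.2 and 159 CPM in iMPC. A further list of 14 genes mixed E-box repressors, regulators of Id genes or proteins, and related genes that are neither. Of these, 13 were compared between the Myog and Pax7 sets, with 3 higher and 2 lower, beside the same 7.02% and 11.5%, and a median of -0.30. Rb1, the retinoblastoma protein gene, stood at 80.9 CPM in the Myog set and 3.17 above the Pax7 set on the log2 scale, Atf3, a repressor of Id1 in other cells, at 26.9 against 10.1 CPM (1.41), and Snai2, an E-box repressor, at 17.4 against 41.8 CPM (-1.26). In iMPC against MEF, 4 of 13 were higher and 3 lower, beside 14.8% and 21.5% of all genes, with Atf3 at 5.82, Zeb2 at 2.48 (149 against 26.6 CPM) and Klf4 at -2.24.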

How the data were processed

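Single-cell 3′ libraries of 1 MEF and 1 iMPC culture were used. The files as deposited give unnormalised counts of UMIs for each gene in each barcode. Cell Ranger 4.0, Seurat 3.2.3 and GRCm38.p6 are named in the submitters' processing notes, without their roles. The iMPC matrix lists 6794880 barcodes and the MEF matrix 6113. How the latter were selected is not given in the sources used here. The MEF sample was grouped by its own treatment label, since its protocol text repeats that of the iMPC sample.

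Of MEF UMIs, 0.209% fell in genes absent from the iMPC list and were dropped. The genes and gene lists were chosen with earlier results of these data known. Genes named beyond the 8 are the 3 most alike in pattern and, from each list, the 3 with the largest ratio in the Myog set against the Pax7 set and in iMPC against MEF; 1 gene that this rule names is not reported here. Thinning drew 5000 UMIs per cell without replacement and left out 284 of the MEF cells. Doublets were kept: Scrublet marked 290 iMPC cells (3.10%) and 1 MEF cell (0.0165%), so the caller did not work in MEF, and removing them is an alternative. Positions are from GENCODE M21 and promoter sequences from RefSeq. Python 3.11.15, numpy 2.4.6, scipy 1.17.1, pandas 2.3.3 and scanpy 1.11.5 were used, and the ratio calculation was tested on simulated data. With 1 library per group, intervals cover counting error only. The alternatives changed the filters on cells, doublets, scaling, weight of cells, depth, free RNA, sets, fold and level minimum. Holding MEF cells to the iMPC minimum (5382 cells) was added after seeing the data.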

Additional observations from a re-analysis of the deposited data

Results flagged for a closer look

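The iMPC matrix lists barcodes below the UMI minimum for cells, which the comparisons do not use. In 48846 of them with 200 to 600 UMIs, 21254587 UMIs in all, each of the 8 genes was above 0.141 CPM, the limit that a count of 0 allows (3 counts). Id3 stood at 280 CPM (273 to 287), Tcf4 at 146 CPM (141 to 151), Id1 at 113 CPM (108 to 117), Id2 at 72.9 CPM (69.3 to 76.6), Tcf12 at 54.1 CPM (51.0 to 57.3), Tcf3 at 25.9 CPM (23.8 to 28.2), Id4 at 9.36 CPM (8.11 to 10.8) and Msc at 7.86 CPM (6.71 to 9.14). The Ckm set was below these values for Id2, Id3, Id4, Tcf3, Tcf12 and Msc, and above them for Id1 and Tcf4. The Myog set was below them for Id4 (6.58 CPM) and Msc (6.21 CPM), and the Dcn set for Msc (4.35 CPM). Subtracting this profile from the iMPC sums left the sign of each ratio as it was.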

How the results depend on the processing

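Each comparison rests on 1 library per group, so the intervals leave out variation between cultures, and no paired analysis was possible because each group holds 1 library and no test was made. No ratio that was past 2-fold changed sign under any alternative run. Of the log2 ratios under alternatives, 363 stayed within the counting interval and 173 moved out of it. The counts of genes past 2-fold stayed within 1.5 times in 160 cases. In iMPC against MEF, 5 were higher at 1.5-fold in place of 3 at 2-fold. In the Myog set against the Pax7 set, 1 was lower with a minimum of 50 CPM in place of 3. In the Dcn set against the Pax7 set, 1 was higher in place of 0 with iMPC cells of at least 12000 UMIs, with stricter sets, with cells in 1 set only and at 1.5-fold, and 2 were lower at 1.5-fold and 0 with a minimum of 50 CPM, in place of 1. At 3-fold, 2 were higher in the Pax7 set against MEF in place of 6, and 2 in the Dcn set against MEF in place of 5. The log2 difference of the Id to E protein ratio between the Ckm and Pax7 sets, -0.88, came to -0.84 with at most 10% mitochondrial UMIs, -0.98 with doublets removed, -0.93 with CPM averaged over cells and -0.95 with cells and sets thinned to 5000 UMIs. Values that moved by over 1.5 times were, with cells and sets thinned, Id3 (-1.76) and Msc (-3.56) in the Myog set against the Pax7 set and Id2 (-3.68), Tcf12 (-2.42) and Msc (-2.84) in the Ckm set against it, Id4 in the Myog set against the Pax7 set with CPM averaged over cells (-2.75), and Msc against MEF, which rests on 1 UMI (9.11 for all iMPC cells and 9.92 for the Pax7 set at their lowest). The cause was not tested. Scaling by the median gene ratio shifted all ratios by 0.46 in the Ckm set against the Pax7 set and by at most 0.17 in the others. Shares of cells moved with the depth to which cells were thinned in 79 of 80 cases.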

Other observations

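The 1420 iMPC cells with neither a Pax7 nor a Myog UMI were not described as a group of their own in the comparisons. They had a median of 15974.5 UMIs, and their fibroblast markers summed to 2842 CPM. In them Id4 stood at 50.1 CPM (47.3 to 53.0), close to the Dcn set, Msc at 17.3 CPM, Id3 at 766 CPM (755 to 777), Id2 at 194 CPM (189 to 200), Id1 at 148 CPM (143 to 153), Tcf4 at 380 CPM (372 to 388), Tcf12 at 140 CPM (135 to 145) and Tcf3 at 56.2 CPM (53.3 to 59.2). The 6 iMPC cells with 100 or more Ckm UMIs held 41 Tcf4, 17 Id1, 10 Tcf12, 8 Id3, 6 Id2, 3 Tcf3, 1 Id4 and no Msc UMIs between them.

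In the Dcn set, 75 cells with both Mki67 and Top2a UMIs and 396 with neither, a split added after the Pax7 values were seen, had Id4 at 46.1 and 58.8 CPM, a log2 ratio of -0.35 (-0.65 to -0.06), and Msc at 6.31 and 2.91 CPM on 17 and 22 UMIs. Pax7 cells with 1 to 4 Dcn UMIs (139 cells) had Id4 at 82.6 CPM and those with 5 or more (110 cells) at 68.7 CPM, against 22.8 CPM in the 1931 with none; Msc stood at 25.3, 5.25 and 40.0 CPM in the same order.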
